A study of Mus musculus with 5 samples.

Results

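Lymphatic endothelial cells line the vessels that drain fluid and leukocytes from a tissue, and few of them were captured from these hearts. A barcode, the tag that marks 1 droplet and so usually 1 cell, was counted as lymphatic endothelial when at most 10% of its unique molecular identifiers (UMIs, 1 per captured RNA molecule) were mitochondrial and the following raw UMI sums held. Cdh5 and Pecam1, junction proteins of all endothelium, had to sum to at least 1 UMI, and the lymphatic markers Prox1, Mmrn1 and Ccl21a to at least 3. The endocardial markers Npr3 and Cytl1 had to be at 0, the fibroblast genes Dcn and Col1a1 at no more than 3, and Cd3e, C1qa and Cd79a of T cells, macrophages and B cells at no more than 1. By this rule 67 of 47319 barcodes were lymphatic.

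The hearts came from mice without the checkpoint receptor gene Pdcd1. The control group had both copies of Ctla4, a second checkpoint receptor gene (Ctla4+/+Pdcd1-/-, 4 mice), and the disease group had a single intact copy (Ctla4+/-Pdcd1-/-, 10 mice), a model of myocarditis under immune checkpoint inhibitors. Loss of Pdcd1 was therefore shared by both groups, and no wild-type heart was compared. Hearts were minced, digested with collagenase I, DNase I and hyaluronidase, and pooled, and intact nucleated cells (DRAQ5+DAPI-) were sorted into 5 libraries of 10x Genomics 5' chemistry, with control replicates 1 and 2 and disease replicates 3, 4 and 5. Age, sex and the mice behind each library are not in the labels, so a p-value here measures the spread between libraries of pooled hearts. The genotype labels of single samples also name Pdcd2-/- in control replicate 2 and disease replicate 4 and Pdcd3-/- in disease replicate 5, whereas the series text gives Pdcd1-/- throughout. The groups here rest only on the Ctla4 alleles of the labels.

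As background, lymphatic endothelium is set apart from blood endothelium by the transcription factor PROX1, which is needed both to make and to keep the lymphatic fate. It answers to VEGF-C through the receptor VEGFR3, the product of Flt4, together with the co-receptor neuropilin 2. Lymphatic capillaries take up fluid and cells, carry the hyaluronan receptor LYVE1 and secrete the chemokine CCL21, which draws dendritic cells and T cells that carry CCR7. Collecting vessels downstream have less LYVE1, and valves built with the transcription factor FOXC2. In the heart these vessels drain towards the mediastinal lymph nodes.

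The libraries held between 6465 and 11358 barcodes. At most 10% of UMIs were mitochondrial in 9272 and 5590 barcodes of the control libraries and in 5820, 9964 and 7691 barcodes of the disease libraries. Barcode sequences were shared between pairs of libraries in 86 to 161 cases. Control replicate 1 did not resemble control replicate 2 in the transcripts of the targeted receptors: over all retained barcodes, Ctla4 had 1722 UMIs in control replicate 1 and 34 in control replicate 2, against 155, 8101 and 1901 in disease replicates 3, 4 and 5. Pdcd1 had 2387 and 74 UMIs in control and 198, 13192 and 2886 in disease hearts. Disease replicate 3 thus lay below control replicate 1 for both receptor genes, which are mainly T cell genes, and Pdcd1 reads were present in mice labelled as lacking it. Which part of Pdcd1 the deletion removes is not in the labels, so these counts do not check the genotypes. Pdcd2 had between 89 and 618 UMIs in every library. In the lymphatic barcodes Ctla4 was at 0 and Pdcd1 had 1 UMI.

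The 67 lymphatic barcodes were spread over all 5 libraries, with 25 and 13 from control and 11, 8 and 10 from disease hearts. The median of UMIs per barcode was 3769 and 3035 for control against 5519, 2440.5 and 4460.5 for disease, and their summed counts came to 115965 and 54824 UMIs against 65773, 25524 and 42882. The sums of disease replicate 4 are therefore the least precise, and 1 barcode supplied 36.7% of their UMIs. The blood endothelial barcodes used beside them (at least 3 UMIs of Cdh5 and Pecam1, none of the 3 lymphatic markers, and the same limits on other cell types) numbered 9673, with median depths of 2642 to 3491 UMIs. Scrublet, which scores each barcode against simulated doublets, called 0 of the 67 as doublets while calling 1.56 to 4.09% of all barcodes per library.

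Each exclusion in the rule removed barcodes. Of 112 barcodes with at least 3 UMIs of Prox1, Mmrn1 and Ccl21a, 95 also had an endothelial UMI. Of these 95, 14 had an endocardial marker, 16 had more than 3 UMIs of Dcn and Col1a1, and 7 had more than 1 leukocyte marker UMI. Among barcodes that met every other limit, 12749 had 0 lymphatic marker UMIs, 120 had 1 and 10 had 2, while 5 had 3 and 6 had 4, a decline without a gap at the threshold. None of the 10 just outside had a UMI of Lyve1, against 3 of the 11 just inside, and those 11 came from control replicate 1 (4), control replicate 2 (3), disease replicate 4 (2) and disease replicate 5 (2).

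The 3 markers that chose the barcodes did not all occur together. Ccl21a (chr4:42772860-42773993, minus strand, GRCm38) was in 54 of 67, Mmrn1, which encodes the platelet and endothelial matrix protein multimerin 1 (chr6:60924976-60989378, plus strand), in 59, and Prox1 (chr1:190118035-190170714, minus strand) in 46. All 3 were found in 34 barcodes, 2 of them in 24 and a single marker in 9, of which 5 had Prox1 alone. Ccl21a was by far the most abundant, with 1421 and 1085 UMIs in control and 984, 534 and 1116 in disease barcodes. A near-identical copy of the gene, Gm21541 (chr4:41903610-41904743, plus strand), had 75 and 125 UMIs against 72, 56 and 118, so the division of reads among the copies is uncertain.

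The label was checked with genes that the rule did not use. Lyve1 (chr7:110850607-110863239, minus strand) had 173 and 217 UMIs in the control and 181, 138 and 93 UMIs in the disease lymphatic barcodes. As CPM, counts scaled to the plain UMI total of the class in its library, this was 1492 and 3958 against 2752, 5407 and 2169, and in blood endothelial barcodes between 3.77 and 5.70 CPM. A Lyve1 UMI was found in 71.6% of the lymphatic barcodes (48 of 67, exact 95% interval 59.3 to 82.0%, counting error only), in 1.69% of the blood endothelial and in 2.48% of 8836 fibroblast barcodes, which should lack it. After every barcode was thinned to 1000 UMIs, which left out 3 of the lymphatic barcodes, the shares were 59.4, 0.443 and 0.567%. The high Lyve1 level held in each of the 5 libraries, but its order among them rests on few barcodes. The barcode with the most Lyve1 held 129 of 217 UMIs in control replicate 2, 91 of 181 in disease replicate 3 and 104 of 138 in disease replicate 4.

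Other lymphatic genes outside the rule had the same pattern. Flt4, the VEGF-C receptor (chr11:49609263-49652739, plus strand), was found in 80.6% of the lymphatic, 13.1% of the blood endothelial and 0.226% of the fibroblast barcodes. Its level was 724 and 1040 CPM in the control and 593, 979 and 956 CPM in the disease lymphatic barcodes, 16.8 to 25.1 times that in the blood endothelium of the same library. Reln, which encodes the secreted glycoprotein reelin, was found in 70.1% of the lymphatic barcodes and in 0.0517% of the blood endothelial ones. Pdpn, the mucin-like protein podoplanin, was found in 46.3% against 0.527%, but also in 34.7% of fibroblast barcodes. The scavenger receptor Stab1 was in 70.1% against 19.4%. In the sums of each library, then, the lymphatic genes of the label were present. Single barcodes were less certain, since 19 of 67 had no Lyve1 UMI and 4 had none of Lyve1, Flt4, Reln, Pdpn and Stab1.

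Markers of other cells were near 0 for mesothelial, T and NK, B, neutrophil and Schwann cells, and present at low levels for others. Cd3e, C1qa, Cd79a, Dcn and Col1a1 are in these lists and were capped by the rule itself. Their low counts were therefore fixed in advance and say nothing about purity. Of 10 T cell and NK markers, Cd3d, Cd3e, Cd8a, Gzma, Lck and Trac were at 0, and the list summed to 34.5, 0, 0, 157 and 0 CPM in the order control 1 and 2, disease 3, 4 and 5, the order used for all series of 5 values below. The macrophage markers Adgre1 and Fcgr1 were at 0, and the other 8 of 10 summed to 517, 420, 471, 784 and 257 CPM, against 507, 171, 308, 651 and 370 CPM in blood endothelium. The 10 fibroblast markers summed to 1018, 328, 441, 549 and 560 CPM, and the cardiomyocyte markers, with Nppa at 0, to 578, 310, 274, 118 and 70.0 CPM (992 to 1448 CPM in blood endothelium). Arterial markers came to 802 to 1802 CPM and venous ones, with Ackr1 at 0, to 973 to 2752 CPM. Pericyte and smooth muscle markers stood apart in disease replicate 3 alone, with 5823 CPM against at most 147 CPM elsewhere, and red blood cell genes in control replicate 1 alone, with 4165 CPM against at most 78.4 CPM. The genes behind both excesses lay mostly in 1 barcode each, described further on.

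Compared with blood endothelium, Reln, Dtx1, Gpm6a and Lyve1 were the genes highest in lymphatic barcodes. Because the classes were separated by the lymphatic markers of the same barcodes, these folds are descriptions without a test. A blood endothelial library at 0 was set to 3 UMIs, which makes its fold a lower bound. The genes were ranked by the lowest of their 5 library folds, among genes with at least 20 UMIs. Reln led with 715 to 8968 times the blood endothelial level, from 586, 1167, 699, 470 and 956 CPM. Next came Dtx1, a Notch pathway ubiquitin ligase (424 to 2803 times), and the membrane glycoprotein gene Gpm6a (313 to 4204 times). Blood endothelium held 0, 1, 2, 3 and 1 UMIs of Reln and 0, 1, 1, 1 and 1 of Dtx1. For Gpm6a it held 7, 1, 10, 1 and 0 UMIs. The highest fold of each of these genes divides by a single UMI, so the ranges are imprecise. Lyve1 followed at 266 to 1049 times.

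Several of the 20 genes highest by this rank encode proteins that act on other cells. Il7, a survival cytokine of lymphocytes, was at 129, 164, 137, 235 and 257 CPM in lymphatic barcodes and at 1.1 to 1.56 CPM in blood endothelium, a range of 105 to 214 times. The semaphorin genes Sema3a and Sema3d, guidance cues of axons and endothelial cells, were at least 86.4 and 89.2 times higher in every library. Fgl2, a prothrombinase that also exists as a secreted immune regulator, was 96.3 to 536 times higher. Lcn2, the iron-siderophore binding protein lipocalin 2, was at 414, 693, 350, 3604 and 1329 CPM, with 33.3% of its UMIs in 1 barcode. That barcode held 86 of the 92 Lcn2 UMIs of disease replicate 4, so the level there rests on it. The Lcn2 values of disease replicates 4 and 5 were the highest, while disease replicate 3 lay below both controls. Tbx1, a transcription factor gene that acts in lymphatic development, had 25 UMIs in 15 lymphatic barcodes and 0 in every blood endothelial library, at least 108 times higher. The remaining 10 of the 20 were Htr2b, Slc45a3, Duox2, Kbtbd11, Tc2n, Comp, Slc38a4, Abi3bp, Pdpn and Pkhd1l1, with lowest library folds from 79.4 (Pkhd1l1) to 179 (Htr2b).

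**Figure D1:**
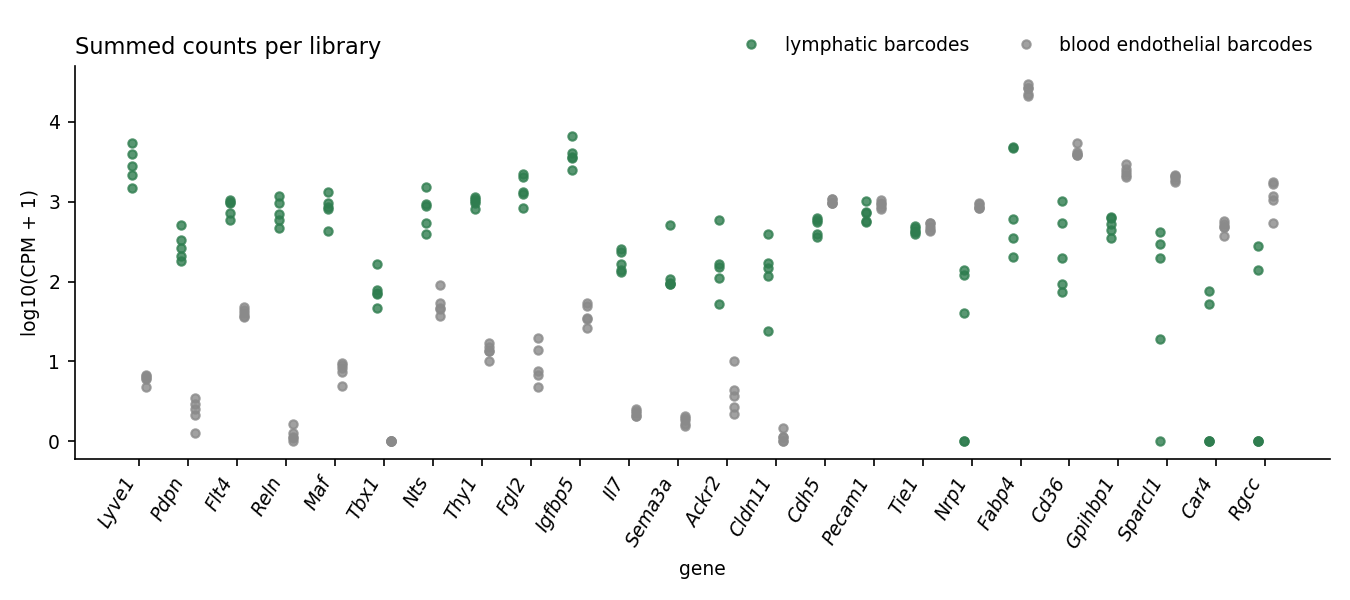
Level of 24 genes in lymphatic (green) and blood endothelial (grey) barcodes, as log10(CPM + 1) of the summed counts; each point is 1 of the 5 libraries. Lyve1 to Cldn11 lie higher in lymphatic barcodes in every library, Cdh5, Pecam1 and Tie1 lie close together, and Nrp1 to Rgcc lie lower, with Fabp4 and Cd36 spread widely among the lymphatic sums.

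Among abundant genes, Igfbp5, a secreted binding protein of insulin-like growth factors, reached 3518, 3648, 2478, 4035 and 6669 CPM, 46.9 to 139 times the blood endothelial level. Thy1, a surface glycoprotein best known from T cells and fibroblasts, was found in 57 of 67 barcodes at 819, 1131, 1064, 1019 and 956 CPM, against 9.24 to 15.9 CPM. Its 5 values differed by less than a factor of 1.5 between libraries. Maf, a transcription factor gene, was 49.5 to 248 times higher, and Nr2f2, the venous and lymphatic fate factor COUP-TFII, 9.16 to 25.5 times higher. The tight junction gene Cldn5 was 4.70 to 9.28 times higher.

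Of 33 genes in a list of lymphatic identity, all had at least 1 UMI in the lymphatic barcodes, but several known members were sparse. Stab2, a hyaluronan scavenger receptor, had 5 UMIs. Foxc2, the valve factor, had 19 UMIs in 14 barcodes, 20.9% against 0.517% of the blood endothelial barcodes. Ackr4, a decoy receptor for CCL21 described in collecting lymphatics, had 7 UMIs in 2 barcodes (2.99%), while 20.9% of fibroblast barcodes had a UMI of it. Ackr2, a decoy receptor for inflammatory chemokines, was more frequent, with a UMI in 25 barcodes and 51.7, 109, 152, 588 and 163 CPM, 30.3 to 93.4 times the blood endothelial level. All 3 disease libraries lay above both controls for Ackr2, whose counts were too few for the test between groups.

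In the VEGF-C and angiopoietin pathways the receptors were present, while the VEGF ligands were nearly absent. Beside Flt4, the co-receptor Nrp2 was at 673, 657, 289, 784 and 536 CPM, 1.77 to 5.25 times blood endothelium, and Kdr, the receptor VEGFR2, at 487 to 784 CPM, 0.504 to 0.654 times. Tie1, an orphan receptor of the angiopoietin system, stood at 397 to 490 CPM and at 0.809 to 1.06 times. Nrp1, the co-receptor typical of blood vessels, had 14, 0, 9, 1 and 0 UMIs and at most 0.148 times the blood endothelial level. Vegfc, Vegfd and Vegfa had 1, 1 and 2 UMIs in all. Ccbe1 and Adamts14, which help to process VEGF-C, had 0 UMIs in 67 barcodes, as did Svep1. For each of them a count of 0 allows a share of barcodes with a UMI of up to 4.48% (3 counts of 67). It sets no limit on cells that express these genes at a low level. Blood endothelial barcodes had Vegfc at 22.4 to 68.4 CPM. Of the angiopoietins, Angpt1 was at 0 and Angpt2, an antagonist or weak agonist of TIE2, had 13, 10, 8, 0 and 1 UMIs. The adrenomedullin receptor genes Calcrl and Ramp2 were at 172 to 1058 and 431 to 1397 CPM.

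Of 42 leukocyte trafficking genes 34 had a UMI in the lymphatic barcodes, and outside the rule's own genes the list summed to 5114, 6822, 7055, 11205 and 6623 CPM, against 5382 to 6901 CPM in blood endothelium. Lyve1 is in this list and gave 1492 to 5407 CPM of the lymphatic sums. Several of its chemokines and adhesion molecules were at 0. Ccl19, the other CCR7 ligand, had 0 UMIs in all 67, as did the selectin Sele, the venular receptor Ackr1 and the addressin Madcam1, each with the same limit on barcodes with a UMI. Cxcl12, abundant in blood endothelium at 521 to 2662 CPM, was at 216, 91.2, 243, 118 and 70.0 CPM. Vcam1 had 3 UMIs. Icam1 and Icam2, adhesion molecules bound by leukocyte integrins, were present at 118 to 411 and 164 to 502 CPM, and S1pr1, a receptor for sphingosine-1-phosphate, at 233 to 549 CPM. Cxcl9, a chemokine induced by interferon-gamma, was found in 11.9% of lymphatic barcodes against 31.6% of blood endothelial and 5.10% of fibroblast barcodes. Its counts of 8, 0, 1, 1 and 0 UMIs showed no higher level in the disease libraries.

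Genes of capillary blood endothelium and of fatty acid transport were low. The 10 lowest genes by the highest of their library folds were Nrp1, Tcim, AW112010, Lims2, Sparcl1, Car4, Fabp4, Rgcc, Ifi203 and Palmd, with at most 0.148 to 0.234 times the blood endothelial level. Fabp4, a fatty acid binding protein that is among the most abundant transcripts of heart capillaries, was at 4639, 201, 4880, 353 and 606 CPM in lymphatic barcodes and between 20794 and 29515 CPM in blood endothelium. Control replicate 1 and disease replicate 3 stood well above the other 3 libraries. The 10 capillary markers together followed the same order, at 8321, 2262, 10445, 2703 and 2705 CPM. A set of 6 barcodes of these 2 libraries held 798 of the 905 Fabp4 UMIs, and 1 of them held 40.4%. Whether this RNA was made by the lymphatic cells was not tested.

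The lymphatic barcodes were not uniform, and Ccl21a, a gene of the rule, varied widely among them. Cuts on Ccl21a, Cldn11 and Fabp4 were chosen after the values were seen, so the following is a description. In 39 barcodes (14, 8, 6, 4 and 7 per library) Ccl21a had at least 20 UMIs, reaching 442, and in 28 it had fewer, with 13 at 0. Only 5 barcodes lay between 10 and 30 UMIs. Median depth was nearly equal, at 3669 UMIs in the high and 3679 UMIs in the low class.

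Several lymphatic genes outside the rule were found in more of the barcodes high in Ccl21a. The low class holds all 11 barcodes that met the rule with 3 or 4 marker UMIs and all 5 with Prox1 alone, so the rule itself enters this contrast. Lyve1 was found in 38 of 39 against 10 of 28, Reln in 35 against 12, Flt4 in 37 against 17, Pdpn in 24 against 7, Nrp2 in 29 against 7 and Stab1 in 33 against 14. Prox1 was found in 27 of 39 and 19 of 28, which cannot be compared, because a barcode with little Ccl21a mostly needed Prox1 or Mmrn1 to meet the rule. Cldn11 went the other way, in 4 of 39 against 11 of 28, and Tbx1 in 5 against 10. Nts, which encodes the peptide neurotensin (chr10:102481756-102490486, minus strand), was found in 21 of 39 and 19 of 28.

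**Figure D2:**
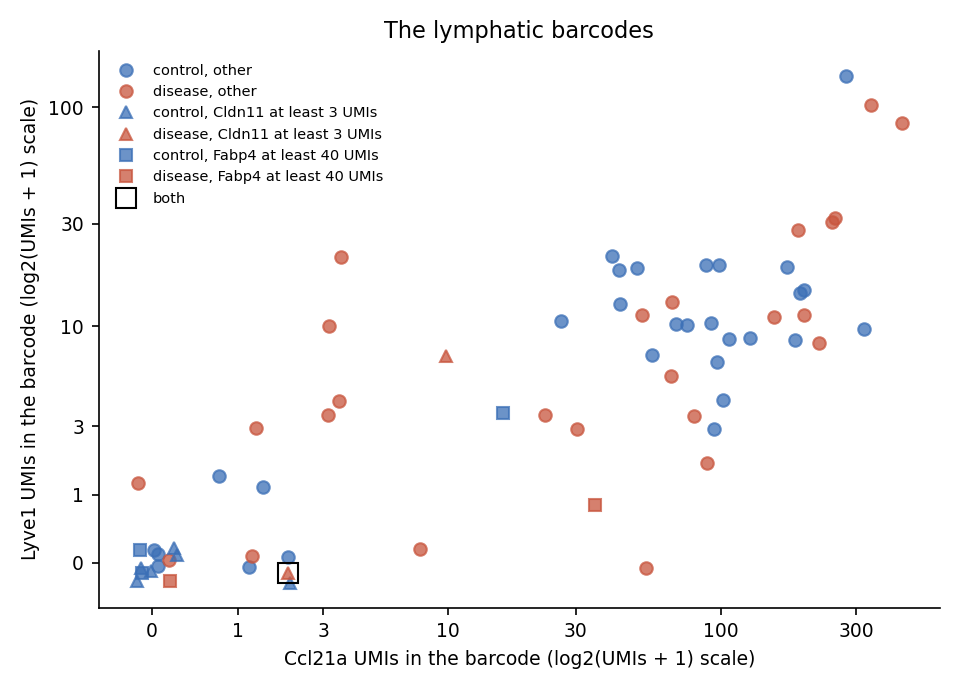
Ccl21a against Lyve1 UMIs in each of the 67 lymphatic barcodes, both on a log2(UMIs + 1) scale with points moved slightly apart; blue is control and red disease, triangles have at least 3 Cldn11 UMIs, squares at least 40 Fabp4 UMIs and the framed point both. The 39 barcodes with at least 20 Ccl21a UMIs lie mostly at upper right and most triangles and squares lie at 0 of both genes.

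A group of 8 barcodes had at least 3 UMIs of Cldn11, the tight junction gene claudin 11 (chr3:31149920-31164324, plus strand). They came from control replicate 1 (5), control replicate 2 (1) and disease replicate 3 (2). Prox1 had a median of 5 UMIs in them and up to 27, while Ccl21a had a median of 0 and no more than 12, and Lyve1 was present in only 1. All 8 had Nts, with 2 to 35 UMIs, and 3 had Foxc2. Over all blood endothelial barcodes Cldn11 had a UMI in 0.062%, and over fibroblast barcodes in 1.02%. The data hold no separate label for collecting vessels or valves.

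Another set of 6 barcodes, 1 of which also had at least 3 Cldn11 UMIs, had at least 40 UMIs of Fabp4 (49 to 366), 3 from control replicate 1 and 3 from disease replicate 3. All 6 also had Cd36, the fatty acid translocase of capillaries, with 3 to 40 UMIs. Their median depth was 6780 UMIs, and 3 of them had Prox1 as their only lymphatic marker. The 5 barcodes with Prox1 alone (3 in control replicate 1, 1 in control replicate 2 and 1 in disease replicate 3) had 4 to 11 Prox1 UMIs, no Lyve1, and Flt4 in 1 of 5. In fibroblast barcodes (at least 10 UMIs of Dcn and Col1a1) Prox1 was found in 1.95%, Ccl21a in 0.464% and Mmrn1 in 0.0566%.

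Lymphatic barcodes made up a smaller share of the disease libraries, but the design could not put this past 0.05. Of all retained barcodes they formed 0.270 and 0.233% (control) against 0.189, 0.0803 and 0.130% (disease), 0.251% ± 0.0262 (SD, n = 2) against 0.133% ± 0.0544 (SD, n = 3). The groups did not overlap. The difference was -0.118 percentage points, with p = 0.2 in a two-sided exact permutation test, which at 2 against 3 libraries allows no p below 0.1. The exact 95% binomial interval of control replicate 1 (0.175 to 0.398%) lay above that of disease replicate 4 (0.0347 to 0.158%), while that of control replicate 2 (0.124 to 0.397%) overlapped those of all 3 disease libraries.

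The share of all barcodes depends on how many leukocytes a library holds, so the share of endothelial barcodes was taken as well. Control libraries had 1.26 and 0.642% and disease libraries 0.590, 0.557 and 0.412%, with means of 0.95% ± 0.436 (SD, n = 2) and 0.520% ± 0.0948 (SD, n = 3). The difference of -0.430 percentage points had p = 0.1, the smallest an exact permutation test of 2 against 3 can give. Control replicate 1 carried much of it: without that library the difference was -0.122, and without control replicate 2 it was -0.738 percentage points. The 2 groups also overlapped when at least 5 marker UMIs were required or when the mitochondrial limit was 5%, with differences of -0.330 (p = 0.3) and -0.136 (p = 0.7) in the same exact test. For the share of all barcodes, leaving out 1 library at a time gave -0.146 to -0.0916 percentage points, and the groups overlapped under the same 2 settings, with differences of -0.0849 and -0.0573 (p = 0.3 for each in the exact permutation test). These are shares of sorted barcodes, not counts of cells in the heart.

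**Figure D3:**
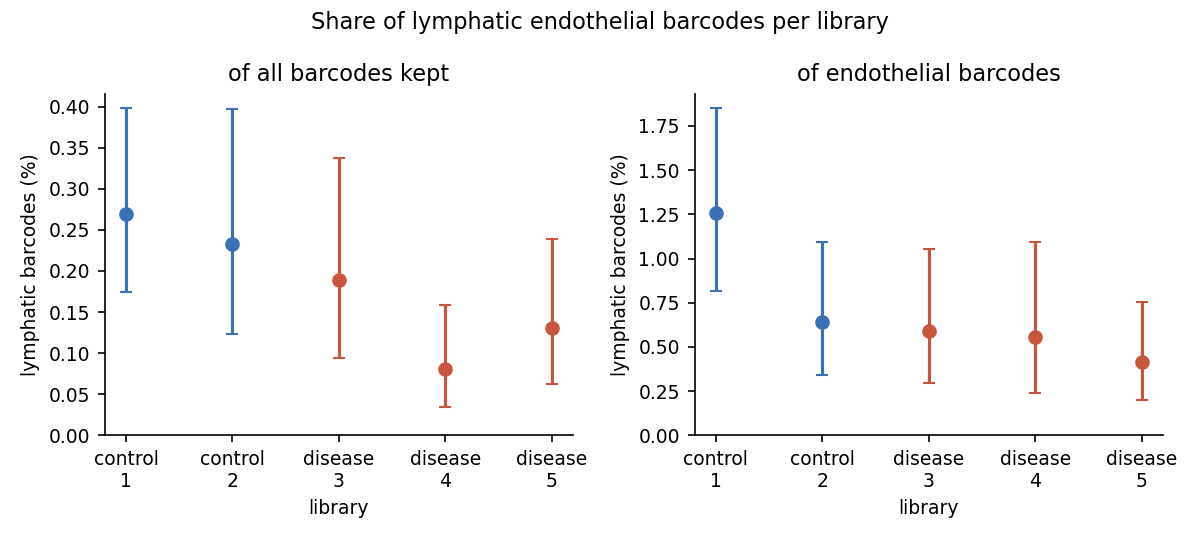
Lymphatic barcodes as a percentage of all retained barcodes (left) and of endothelial barcodes (right) in each library; points are single libraries, bars are exact 95% binomial intervals, blue is control and red disease. Both control points lie above all 3 disease points in both panels, and the intervals of neighbouring libraries overlap.

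Within the lymphatic barcodes, a single gene passed the test between disease and control. Counts were summed per library and compared with edgeR's quasi-likelihood test over 1104 genes with enough counts, with Benjamini-Hochberg adjustment, and 1 gene (0.0906%) had an adjusted p under 0.05. This was Fth1, the heavy chain of the iron storage protein ferritin (chr19:9980598-9985098, plus strand). It had 712 and 391 UMIs in the control and 81, 22 and 73 UMIs in the disease libraries, or 6140 and 7132 against 1232, 862 and 1702 CPM. The groups were far apart. The log2 fold change was -2.50 (SE 0.33, adjusted p = 0.0294), lower in 3 of 3 disease libraries. Over 15 fits its adjusted p ran from 4e-06 to 0.121, and the call was lost without control replicate 2 (adjusted p = 0.0557) and without disease replicate 4 (adjusted p = 0.0517), with a mitochondrial limit of 5% (adjusted p = 0.0932) and with equal numbers of barcodes (adjusted p = 0.121), all in edgeR. Leaving out disease replicate 3 gave 12 called genes, 3 higher (Gbp2, H2-Aa and Serping1) and 9 lower, and leaving out disease replicate 4 gave 0 (24 higher and 73 lower at an unadjusted p under 0.05).

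Fth1 fell in blood endothelial barcodes too, from 2634 and 2269 to 415, 246 and 400 CPM (log2 fold change -2.85, edgeR adjusted p = 0.00168). The 2 comparisons share their libraries. A test of the difference between the changes gave 0.09 on the log2 scale (edgeR adjusted p = 1). Lower counts of the same kind were widespread in the disease libraries: 1396 of 12448 genes (11.2%) were called lower and 53 (0.426%) higher in blood endothelium, although 51.4% of all fitted changes there were above 0. In a list of 7 genes chosen on these same libraries as low in all cells of the disease hearts, which is therefore no independent evidence of their direction, the summed lymphatic level was 621, 584, 76.0, 0 and 93.3 CPM and the blood endothelial level 1281, 1409, 45.2, 31.1 and 48.4 CPM. None of the 7 had enough counts to be tested in lymphatic barcodes. How far this common shift enters the Fth1 result was not tested.

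At an unadjusted p under 0.05, 89 genes (8.06%) differed, 20 (1.81%) higher and 69 (6.25%) lower in disease, and the groups did not overlap for 268 genes (24.3%). The median log2 fold change of all 1104 was 0.00 and 50.1% of the changes were above 0. The following 4 genes are named because of their values. The membrane protein gene Itm2b stood at 2182, 2316, 623, 470 and 746 CPM (-1.98, adjusted p = 0.0593), the ribosomal protein gene Rps2 at 1932, 1496, 365, 78.4 and 280 CPM (-2.83, adjusted p = 0.0593) and the actin binding profilin gene Pfn1 at 845, 420, 106, 39.2 and 117 CPM (-2.86, adjusted p = 0.0970), all from edgeR. All 3 were also called lower in blood endothelium. Rbp7, a retinol binding protein gene of capillaries, was the only one of the 4 with an upward change, at 69.0, 54.7, 319, 470 and 303 CPM (2.31, edgeR adjusted p = 0.162), and was called higher in blood endothelium too, at 0.49 (edgeR adjusted p = 0.0483). Fth1 and Rps2 have near-identical processed copies in the genome, between which counting can split reads.

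**Figure D4:**
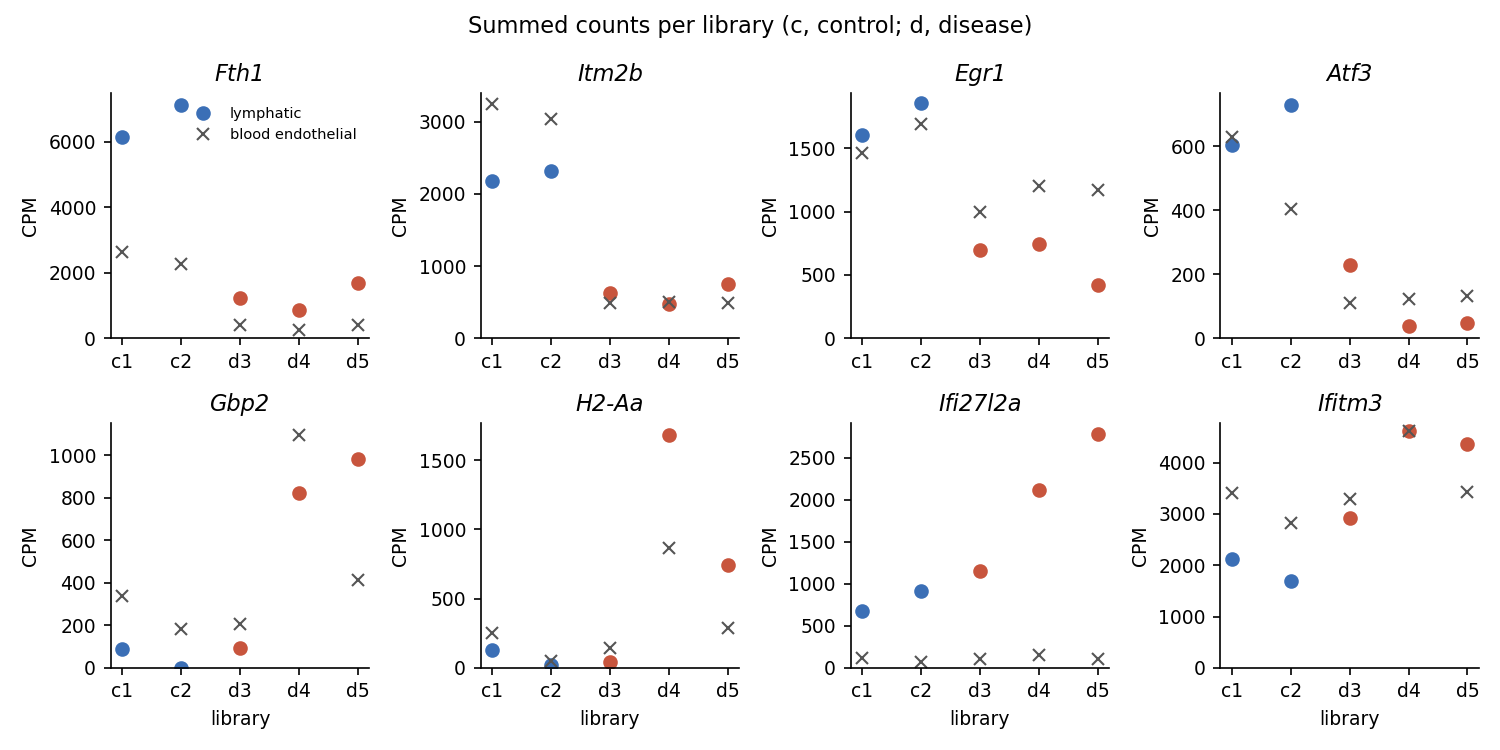
CPM of 8 genes in lymphatic (filled points, blue control and red disease) and blood endothelial (crosses) barcodes of each library, with c for control, d for disease and linear axes from 0. Fth1 and Itm2b are low in all 3 disease libraries in both classes, whereas Gbp2 and H2-Aa are high in disease replicates 4 and 5 and not in disease replicate 3.

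No gene of lymphatic identity passed the test between groups. Of 20 testable genes of the identity list outside the rule, 9 had a fitted change above and 11 below 0, with 0 called, 2 lower at an unadjusted p under 0.05 (6.25% of all genes tested), 4 with groups that did not overlap (24.3% of all) and a median of -0.05 (-0.33 to 0.14 over the other fits). The fitted log2 change was 0.19 (SE 0.49) for Lyve1, -0.20 (SE 0.37) for Flt4, 0.19 (SE 0.51) for Pdpn, -0.39 (SE 0.44) for Reln and 0.38 (SE 0.44) for Nr2f2. These standard errors, from 0.37 to 0.51, limit the size of change that the counts could have shown. Sox18, an upstream regulator of Prox1, had 39, 19, 7, 0 and 5 UMIs, or 336, 347, 106, 0 and 117 CPM, with every disease library below both controls (-2.07, SE 0.59, edgeR adjusted p = 0.246). It was called lower in blood endothelium (-2.43, edgeR adjusted p = 0.000863).

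The receptor and signalling list held 15 testable genes, 6 with a fitted change above 0, 0 called and a median of -0.05 (-0.33 to 0.04 over the other fits). Ramp2 was at 1397, 1003, 715, 431 and 513 CPM, with both controls above every disease library (-1.22, SE 0.36, edgeR adjusted p = 0.260), and in blood endothelium it was called lower at -1.60. Calcrl, its partner, was at 172, 201, 243, 1058 and 257 CPM (1.24, SE 0.68, edgeR adjusted p = 0.799), with every disease library above both controls. The junction and valve list (12 tested, 7 above 0, median 0.07), the matrix and secreted protein list (20 tested, 14 above 0, median 0.14) and the list of endothelial transcription factors (18 tested, 9 above 0, median 0.03) had 0 called each. All 3 medians took either sign over the other fits, from -0.29 to 0.28 for junctions, -0.02 to 0.31 for matrix and -0.25 to 0.13 for transcription factors. Of 11 testable trafficking genes, 9 were above 0 (median 0.36) and 0 were called, the median being 0.68 without disease replicate 3 and 0.11 with equal numbers of barcodes, against 9 of the same 11 above 0 in blood endothelium (median 0.24).

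Levels of interferon-gamma response genes were higher in disease replicates 4 and 5 and not clearly so in disease replicate 3. Of 14 testable genes of the interferon-gamma list, 13 had a fitted change above 0 (50.1% of all genes tested) with a median of 0.69, 3 were higher at an unadjusted p under 0.05 (1.81% of all), and 0 were called. In blood endothelium the median of the same genes was 0.27. Over the other fits the lymphatic median ran from 0.23 (without disease replicate 4) to 1.61 (equal numbers of barcodes), and it was 1.43 without control replicate 1 and 1.11 without disease replicate 3. The whole list summed to 4467 and 2225 CPM in control and 4759, 12380 and 6530 CPM in disease lymphatic barcodes, and to 8778, 6208, 6255, 14186 and 8063 CPM in blood endothelium, so control replicate 1 and disease replicate 3 were nearly level in lymphatic barcodes. The levels of Ctla4 and Pdcd1 over whole libraries were also highest in disease replicates 4 and 5, and the T cell and NK markers within the lymphatic barcodes came to 157 CPM in disease replicate 4. Their part in these sums was not tested.

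Gbp2, an interferon-induced GTPase gene (chr3:142620602-142638008, plus strand), had the largest fitted change of the list. It had 10, 0, 6, 21 and 42 UMIs, or 86.2, 0, 91.2, 823 and 979 CPM, and its fitted change was 3.34 on the log2 scale (SE 1.08, edgeR adjusted p = 0.369). Of its 79 UMIs, 33 (41.8%) lay in a single barcode. That barcode was in disease replicate 5, so it held 33 of the 42 UMIs there. Serping1, which encodes the C1 inhibitor of complement, was at 164, 219, 274, 1215 and 630 CPM (1.70, SE 0.62, edgeR adjusted p = 0.415), with all 3 disease libraries above both controls. The GTPase gene Iigp1 was at 267, 91.2, 365, 1215 and 373 CPM (1.56, SE 0.66). Gbp2 was past the threshold in 2 of 12 fits, with adjusted p-values from 0.000718 to 0.690 and fitted changes from 2.64 to 7.79. Control replicate 2 is at 0, so no fold can be read from it.

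All 7 testable genes of the type I interferon list had a fitted change above 0 (50.1% of all genes tested), with a median of 0.54, and 0 were called. In blood endothelium all 7 were above 0 too, with a median of 0.15. Over the other fits the lymphatic median ran from 0.29 (every counted gene tested, 17 of 24 above 0) to 1.28 (equal numbers of barcodes). Leaving out 1 library gave medians of 0.35 (without control replicate 2) to 0.96 (without control replicate 1), and 4 of 5 genes above 0 without disease replicate 3 and 4 of 6 without disease replicate 5. Ifi27l2a was at 673, 912, 1155, 2116 and 2775 CPM in lymphatic barcodes (1.22, SE 0.42, edgeR adjusted p = 0.406). In blood endothelium it was lower throughout, at 70.7 to 159 CPM. Ifitm3, a membrane protein that blocks viral entry, was at 2121, 1696, 2919, 4623 and 4361 CPM (0.92, SE 0.31, edgeR adjusted p = 0.392). For both genes every disease library lay above both controls, which held for 151 of the 1104 genes (13.7%).

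Antigen presentation genes had the widest spread among disease libraries. Of 16 testable genes 12 had a fitted change above 0 (median 0.39) and 0 were called. The median was 1.19 without control replicate 1, 0.18 without disease replicate 4, 0.19 without disease replicate 5, 0.75 without disease replicate 3 and 0.07 with Prox1 and Mmrn1 alone as markers. The class II genes H2-Aa, at 129, 18.2, 45.6, 1685 and 746 CPM (3.04, SE 1.18, edgeR adjusted p = 0.489), H2-Ab1, at 147, 0, 122, 823 and 653 CPM, and Cd74, the invariant chain that escorts class II molecules, at 569, 73.0, 122, 5681 and 1189 CPM, were high in disease replicates 4 and 5. A single barcode held 28.7% of the H2-Aa, 35.1% of the H2-Ab1 and 37.6% of the Cd74 UMIs. The H2-Ab1 barcode was in disease replicate 5 and the Cd74 barcode in disease replicate 4. Each held most of its library's UMIs of that gene. Disease replicate 3 lay below control replicate 1 for all 3 genes. The same order of libraries held in blood endothelium, where H2-Aa was at 249, 49.6, 144, 867 and 287 CPM. The macrophage markers Adgre1 and Fcgr1 were at 0 in the lymphatic barcodes, and the macrophage list reached 784 CPM in disease replicate 4. The class I gene H2-D1 was at 2259, 1842, 517, 1332 and 1283 CPM (-1.13, SE 0.41, edgeR adjusted p = 0.415) and was called lower in blood endothelium at -2.35. Class I genes have near-identical neighbours, so their counts are uncertain.

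Immediate early and stress genes, which respond within minutes to handling and to signals, had fitted changes mostly below 0 in the lymphatic barcodes. This held for 17 of 21 testable genes, with a median of -0.38, and 7 were lower at an unadjusted p under 0.05 (6.25% of all genes tested), but 0 were called. In blood endothelium the median of the same genes was 0.13, and 5 of them were called lower (Egr1, Atf3, Cebpd, Dnajb1 and Dusp1). Of all genes tested there, 11.2% were called lower. Egr1 was at 1604, 1860, 699, 744 and 420 CPM (-1.61, SE 0.34, edgeR adjusted p = 0.162) and the stress factor Atf3 at 604, 730, 228, 39.2 and 46.6 CPM (-2.55, SE 0.60, edgeR adjusted p = 0.218). Their changes in blood endothelium were -0.55 and -2.13. Jun was at 2621, 2207, 1551, 1763 and 1166 CPM (-0.83, SE 0.29, edgeR adjusted p = 0.406), with a fitted change of 0.04 in blood endothelium. Fos did not follow, at 2716, 1879, 2813, 2978 and 1539 CPM (-0.05). The whole list summed to 19290, 16799, 17180, 11009 and 9678 CPM, so disease replicate 3 lay between the controls. Its median ran from -0.87 to -0.22 over the other fits, and without control replicate 1, 9 of 22 genes were above 0 (median -0.22).

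The lipid list (5 tested, 1 above 0, median -0.40) and the clock and glucocorticoid list (6 tested, 4 above 0, median 0.83) had 0 called each, and both medians changed sign in other fits (-1.08 to 1.49 and -0.27 to 1.62). Of 16 cell cycle genes 6 had any UMI and none could be tested. Mki67, the usual mark of cycling cells, was at 0 in all 67 barcodes.

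A fit of both classes with the library as a block asked for which genes the change from control to disease differed between lymphatic and blood endothelial barcodes. It called 8 of 11116 genes (0.072%), 4 (0.036%) with a change more positive and 4 (0.036%) more negative in lymphatic barcodes. At an unadjusted p under 0.05 there were 355 (3.19%), of which 105 (0.945%) were more positive and 250 (2.25%) more negative, and 37.6% of all fitted differences were above 0. With plain library totals in place of TMM scaling the split was 7 to 3, the unadjusted split turned to 217 more positive and 162 more negative, and the median of all fitted differences moved from -0.28 to -0.03. None of the 8 was in the list of lymphatic identity. The smooth muscle genes Acta2, Myh11 and Tagln and the metallothionein gene Mt1 had more UMIs in disease, and the haemoglobin genes Hbb-bs and Hbb-bt, the secreted phosphoprotein gene Spp1 and the chemokine gene Cxcl2 had more in control lymphatic barcodes.

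Each of these calls rested on 1 barcode that held 77.8 to 100% of the gene's lymphatic UMIs. Acta2 had 0, 0, 72, 0 and 1 UMIs, and a single barcode of disease replicate 3 held all 72. The same barcode held 37 of 37 Myh11, 52 of 54 Tagln, 81 of 99 Mt1 and 200 of 213 Rgs5 UMIs, Rgs5 being a pericyte gene that was not called (edgeR adjusted p = 0.255). It was the deepest of the 67, with 18161 UMIs, and had Prox1 as its only lymphatic marker. Hbb-bs had 430, 0, 0, 1 and 0 UMIs, and a barcode of control replicate 1 with 13717 UMIs and Prox1 alone held the 430. Spp1 had 25 UMIs, all in another Prox1-only barcode of control replicate 1. Of 18 Cxcl2 UMIs, 14 lay in a barcode of control replicate 2 that had 195 Ccl21a UMIs. When barcodes with a single lymphatic marker were left out, a choice made after these values were seen, edgeR called 0 of 11005 genes, with 63 more positive and 361 more negative at an unadjusted p under 0.05. DESeq2 also called 0 of 11116 (85 and 66 at an unadjusted p under 0.05). Without control replicate 1 there was 1 call (Cxcl2), and without disease replicate 3 there were 4 (Spp1, Hbb-bs, Rasd1 and H2-Q7).

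**Figure D5:**
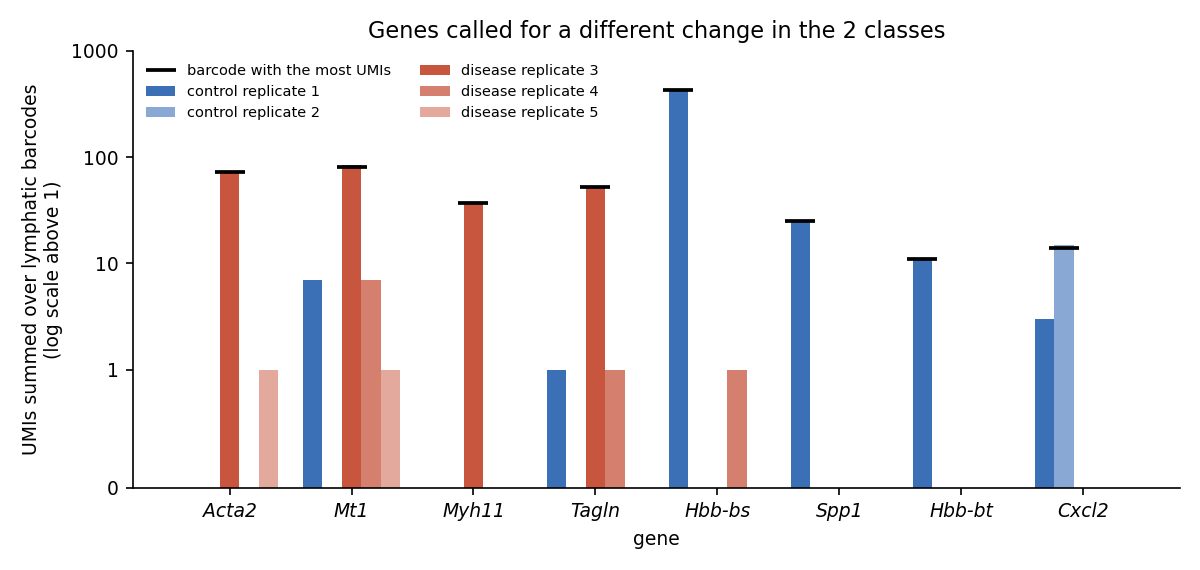
UMIs of the 8 called genes summed over the lymphatic barcodes of each library, on an axis that is logarithmic above 1 and linear below; the black dash marks the UMIs of the barcode with the most. For every gene the dash lies at or just under the top of the tallest bar, so 1 barcode supplied nearly all of that library's UMIs.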

How the data were processed

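Single cells of sorted, pooled mouse hearts were profiled in 5 libraries with 10x Genomics 5' chemistry. The authors deposited raw UMI counts for 31053 genes, and the file headers name Cell Ranger 3.1.0 as their source. The submitters' processing notes also list Seurat 3, GRCh38 and mm10 without a role, and how cell-containing droplets were chosen is not given in the sources used here. Gene positions came from the GENCODE annotation of GRCm38 by gene ID. Total UMIs of the retained barcodes ran from 23745901 to 51975364 per library.

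Counts of the lymphatic barcodes were summed per library. CPM used the plain total of that sum, and intervals are exact Clopper-Pearson at 95% and cover counting error only. Disease was compared with control by edgeR 4.0.16 (quasi-likelihood test, TMM scaling, filterByExpr, Benjamini-Hochberg adjustment at 0.05) in R 4.3.3. The difference between classes was a class by group term with library as a block. DESeq2 1.42.0 was an alternative. Shares were compared by exact permutation of the libraries in Python 3.11.15. Doublets were called per library with Scrublet in scanpy 1.11.5, at an assumed rate of 0.8% per 1000 barcodes.

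The members and the 14 gene lists and 16 marker lists were chosen with earlier results of these data known. Any list gene could be named. Beyond the lists, the rule named the 8 largest rises and falls past the threshold with a mean log2 CPM of at least 5 and groups that do not overlap, the 5 smallest p in each direction for the difference between classes, and the 20 highest and 10 lowest genes against blood endothelium with at least 20 UMIs. Mitochondrial, sex-linked and predicted genes were not named, except Gm21541 as a copy of Ccl21a. Alternatives covered the marker and mitochondrial limits, doublets, equal numbers of barcodes, the low-count filter, the scaling, DESeq2, the blood endothelial gate, thinning and each library left out. The fit on barcodes with at least 2 of the 3 markers, and the class fit restricted to the 1104 genes tested in the lymphatic sums, were chosen after seeing the data.

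The fits were tested on simulated data. Counts were drawn independently for each library, with a single fixed dispersion for all genes. Single barcodes that carry much of a gene were not simulated, so the shares recovered may be too high for these data. Gbp2, for example, had a fitted change of 3.34 with 41.8% of its UMIs in 1 barcode and was not called. Of genes changed by 1, 2 and 3 on the log2 scale, the comparison of groups (913 genes) recovered 24.5, 88.7 and 100% and called 0.797% of unchanged genes. The difference between classes (10874 genes) recovered 0, 1.49 and 3.17%, so a gene it does not call is not shown to change alike. Restricted to 1104 genes it recovered 4.48, 46.3 and 84.8%.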

Additional observations from a re-analysis of the deposited data

Results flagged for a closer look

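For 8 genes the change from control to disease differed between lymphatic and blood endothelial barcodes in edgeR's test of that difference. The adjusted p was 3.59e-09 for Hbb-bs, 9.79e-06 for Spp1, 0.00171 for Acta2, 0.00171 for Hbb-bt, 0.0109 for Mt1, 0.0142 for Myh11, 0.0358 for Cxcl2 and 0.0450 for Tagln. In each case 1 lymphatic barcode held 77.8% or more of the gene's lymphatic UMIs. Acta2, Myh11, Tagln and Mt1 came mostly from the same barcode of disease replicate 3, and Hbb-bs and Hbb-bt from the same barcode of control replicate 1.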

How the results depend on the processing

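No paired analysis was possible because the control libraries are numbered 1 and 2 and the disease libraries 3, 4 and 5, so the groups share no replicate number. Both share differences kept their direction in all 12 alternatives each. The number of genes called between groups was 1 and became 4 with Prox1 and Mmrn1 alone as markers, 4 with DESeq2, 7 with at least 2 of the 3 markers, 34 (10 higher and 24 lower) with every counted gene tested, and 0 with a mitochondrial limit of 5% (17 higher and 41 lower at an unadjusted p under 0.05) or with equal numbers of barcodes (11 and 29). Without 1 library it ran from 0 to 12. The 8 calls between classes became 5 with the mitochondrial limit of 5%, 0 with at least 2 of the 3 markers, 0 with DESeq2, 0 among the genes tested in the lymphatic sums (22 and 17 at an unadjusted p under 0.05), and 1 to 12 without 1 library. Tests on fewer barcodes or libraries also had fewer counts, and otherwise the cause was not tested. Fth1 stayed lower in all 14 alternatives and past the threshold in 10. The share of lymphatic barcodes with Lyve1 was 59.4% thinned (56.1 to 62.5% without 1 library) and 71.6% unthinned. With 8 to 25 barcodes and as few as 25524 UMIs in a library, small changes could not be seen.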
